A study of Mus musculus with 48 samples.

Results

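The lipid droplet coat proteins are described here by the probes of the array named CIDEC, CIDEA, PLIN (now Plin1), ADFP (now Plin2), M6PRBP1 (now Plin3) and S3-12 (now Plin4). Every probe carrying one of these names was taken, which gave 6 probes of 6 genes among the 24613 probes and 18991 gene symbols of the array. Within these names no probe was picked by its measured values, but the names were chosen with earlier results of these data known. 3T3-L1 is a mouse fibroblast line that turns into fat cells under a hormone cocktail. Cells were transfected with 50 nM of either a pooled siRNA (SMARTpool) against PPARγ or a pooled non-targeting control siRNA, and are called PPARγ KD and control. From day −2 all cells of both groups received dexamethasone (0.25 µM) together with the phosphodiesterase inhibitor IBMX (0.5 mM) over 48 h, followed by 5 µg/ml insulin and 1 µM rosiglitazone, an agonist of PPARγ, for a further 48 h from day 0. RNA was taken on day −2 and on days 0, 1, 2, 3, 4, 5 and 6 counted from rosiglitazone. Each siRNA and day had 3 biological replicates, and the RNA was hybridised to 48 arrays. There was no arm without rosiglitazone and none without transfection, so neither can be separated from the course of differentiation here.

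Fat is stored in cells as droplets of neutral lipid under a single layer of phospholipid, and the proteins on that surface decide when enzymes can reach the lipid. Perilipin 1 is the coat protein of the fat cell: at rest it keeps lipases off the droplet, and after phosphorylation by protein kinase A it lets them in. CIDEC, also called FSP27, sits where droplets touch and lets lipid pass from the smaller to the larger one, which gives the fat cell its big droplets, and CIDEA does the same in brown fat. S3-12 (perilipin 4) and M6PRBP1 (perilipin 3, TIP47) move from the cytosol onto small new droplets, and ADFP (perilipin 2, adipophilin) is the coat of droplets in nearly every cell type. PPARγ, which binds DNA together with RXR as a heterodimer, is the master regulator of fat cell formation.

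The probe signals below are the deposited bead intensities before normalization, given in the order of replicates 1, 2 and 3. Replicate 3 arrays had 33.4% to 35.4% of the probes above background (detection p under 0.01), against 36.8% to 40.4% on the others, and were raised by a factor of 1.13 to 1.58 in the scaling. The array with the lowest median signal, 105.1, was PPARγ KD replicate 1 of day 0, which was raised by 1.39. A member probe was read on 13 to 65 beads of an array. Differences are on the log2 scale after background correction and scaling, as PPARγ KD minus control, with the standard error (SE) of limma's fit, and p-values are limma's, Bonferroni adjusted over all 24613 probes. A probe counts as changed where this adjusted p is at most 0.05. The knockdown held in every pair of arrays: the brightest PPARG probe was lower in PPARγ KD in 24 of 24 pairs, by −2.34 on the log2 scale (SE 0.04, adjusted p = 9.48e-34).

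The RefSeq promoters of the members (GRCm38.p6, 250 bases before to 50 after the annotated start, all on the minus strand and written 5′ to 3′ along the gene) are shown because they are the stretch next to genes that moved so differently with PPARγ. Capitals mark the stretch closest to a direct repeat of AGGTCA with 1 base of any kind between the copies (DR1), the element bound by PPARγ and RXR, on either strand. Plin2 lies at chr4:86670010-86670309, Cidec at chr6:113435711-113436010, Plin1 at chr7:79732727-79733026, Plin4 at chr17:56109733-56110032 and Plin3 at chr17:56290462-56290761.
Plin1: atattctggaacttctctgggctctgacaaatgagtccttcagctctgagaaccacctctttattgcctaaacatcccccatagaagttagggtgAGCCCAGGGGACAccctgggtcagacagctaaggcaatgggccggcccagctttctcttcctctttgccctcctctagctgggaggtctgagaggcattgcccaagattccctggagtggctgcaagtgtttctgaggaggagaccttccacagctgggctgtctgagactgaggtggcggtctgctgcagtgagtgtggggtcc
Cidec: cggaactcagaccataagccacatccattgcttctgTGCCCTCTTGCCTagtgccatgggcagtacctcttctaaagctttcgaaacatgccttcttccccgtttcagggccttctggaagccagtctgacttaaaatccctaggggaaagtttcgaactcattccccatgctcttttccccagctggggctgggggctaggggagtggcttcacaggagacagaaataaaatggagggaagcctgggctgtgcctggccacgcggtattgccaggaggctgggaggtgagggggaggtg
Plin4: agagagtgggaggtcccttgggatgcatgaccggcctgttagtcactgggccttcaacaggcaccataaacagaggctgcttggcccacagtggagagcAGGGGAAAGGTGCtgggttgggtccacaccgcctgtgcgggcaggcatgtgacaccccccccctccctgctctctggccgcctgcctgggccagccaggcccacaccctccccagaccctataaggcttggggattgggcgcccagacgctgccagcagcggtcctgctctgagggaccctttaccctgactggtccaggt
Plin2: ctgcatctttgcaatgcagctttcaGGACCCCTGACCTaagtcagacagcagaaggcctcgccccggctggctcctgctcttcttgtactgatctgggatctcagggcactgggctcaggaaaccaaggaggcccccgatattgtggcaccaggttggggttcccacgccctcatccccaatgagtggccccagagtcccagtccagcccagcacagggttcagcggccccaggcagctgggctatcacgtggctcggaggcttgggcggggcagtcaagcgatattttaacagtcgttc
Plin3: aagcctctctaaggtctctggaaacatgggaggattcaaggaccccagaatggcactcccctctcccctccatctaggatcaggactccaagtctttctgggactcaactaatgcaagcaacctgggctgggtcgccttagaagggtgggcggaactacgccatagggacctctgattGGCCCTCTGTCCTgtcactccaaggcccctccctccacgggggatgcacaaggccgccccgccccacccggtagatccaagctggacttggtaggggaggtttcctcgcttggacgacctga

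The closest DR1 match was in Plin2, with 2 mismatches, starting at position −225 from the annotated start on the opposite strand. Of all 32851 promoter windows, 3.86% held a match with at most 2 mismatches. Cidec and Plin3 had a best match with 3 mismatches, which 24.6% of all windows reached, and Plin1 and Plin4 one with 4 mismatches, which 79.8% reached. Cidec has a second annotated start (window chr6:113434715-113435014), where the best match also had 4 mismatches. A complete AGGTCA half-site was found only in Plin2, inside the marked stretch, against 16.3% of all windows. CCAAT or its reverse was present in Plin2, Plin4 and Plin3, in the last overlapping the marked stretch, against 37.4% of all windows. TATAAA (13.6% of all windows) and TTGCGCAA (0.183%) occurred in none of the 6 windows, both strands being searched. These are matches of letters in short windows; binding was not analysed here, and more distant sequence was not searched.

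Over days −2 to 6, 4 of the 6 coat probes were lower in PPARγ KD, 1 was higher and 1 was not detected, so that 5 of 6 changed against 13.1% of all probes. CIDEC was lowest, by −4.15 (SE 0.08, adjusted p = 1.46e-32), followed by PLIN with −3.10 (SE 0.06, adjusted p = 3.61e-32), S3-12 with −2.03 (SE 0.03, adjusted p = 3.97e-36) and ADFP with −0.69 (SE 0.03, adjusted p = 3.39e-21). M6PRBP1 alone was higher, by 0.35 (SE 0.03, adjusted p = 7.88e-09). The fit treats the days of a replicate number as independent, so its SE and p-values do not measure the spread between the 3 replicates. That spread of the all-day difference was an SD of 0.35 for CIDEC, 0.28 for PLIN, 0.13 for S3-12, 0.06 for ADFP and 0.14 for M6PRBP1. The sign was the same in all 3 replicates for each of them. The CIDEC and PLIN values are averages that include days below background, and lay between −4.34 and −3.69 and between −3.67 and −2.10 over the other settings tried. The median of the 6 was −1.36 and that of all probes −0.03. Lower means less transcript in a dish of mixed cells: fewer fat cells and less RNA per cell cannot be told apart in these samples.

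**Figure D1:**
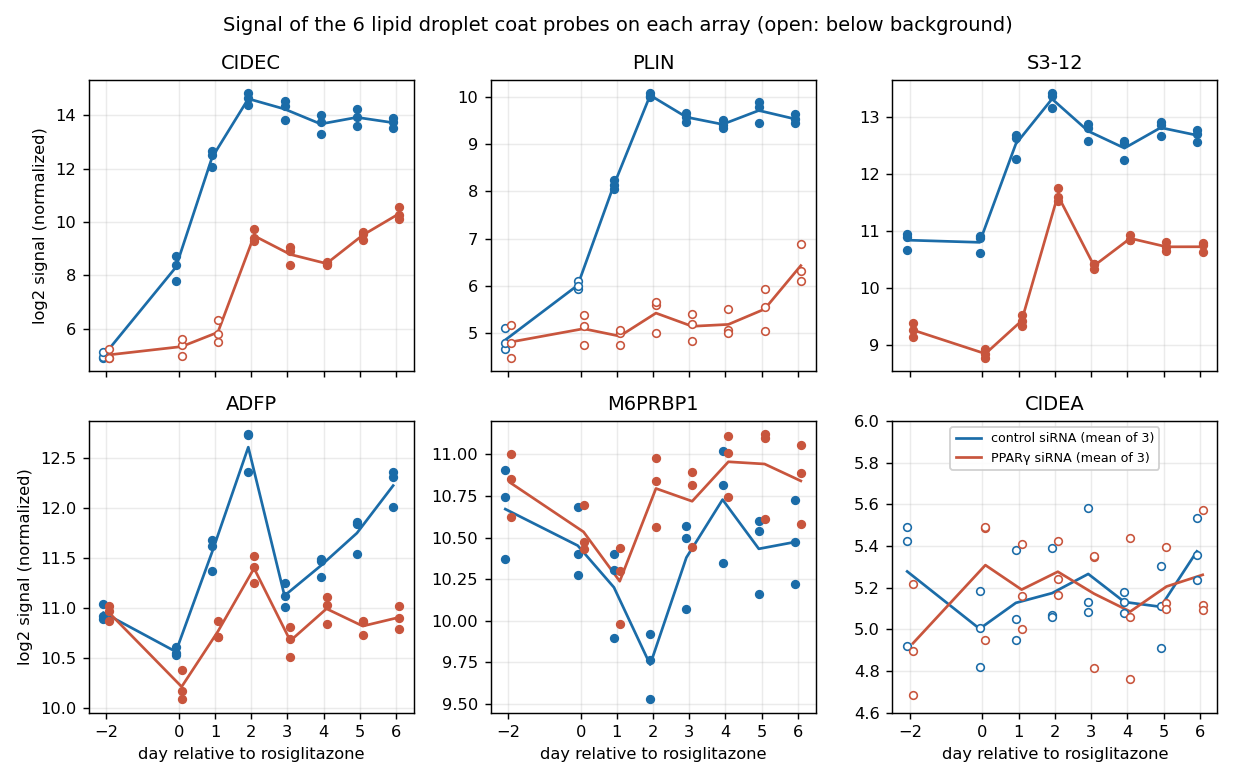
Normalized log2 signal of each coat probe (y axis, a scale of its own in each panel) against the day relative to rosiglitazone (x axis), for control (blue) and PPARγ siRNA (red). Points are single arrays, open where the probe was below background, and lines join the means of 3 replicates. CIDEC and PLIN rise from background in control cells, S3-12 is lower in PPARγ KD from day −2 on, ADFP separates after day 0, M6PRBP1 is lowest on day 2 in control and on day 1 in PPARγ KD cells, and CIDEA stays at background.

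CIDEC showed the widest range. On day −2 it was below background in all 6 samples, with 122.6, 99.1 and 90.3 in control and 91.8, 118.1 and 92.6 in PPARγ KD. On day 0, after IBMX and dexamethasone and before rosiglitazone, control cells read 612.3, 434.3 and 239.1, all above background, while PPARγ KD cells read 93.1, 122.5 and 106.7, all below. Of the coat genes that started below background, CIDEC was thus the first to come above it, in control cells.

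On day 2 CIDEC stood at its maximum in control cells, with 31325, 28390.1 and 15983.8, and had come above background in PPARγ KD cells with 751.2, 1002.2 and 748.4. On day 6 control cells read 17429.1, 13556.7 and 8832.2 and PPARγ KD cells 1184, 1410.4 and 1025.7. The siRNA groups did not overlap on any day from day 0 on. Control signal was at least 3.43-fold higher on day 0 and at least 61.1-fold higher on day 1, where PPARγ KD was below background and only a bound can be given. The measured difference was 35.4-fold on day 2 (−5.14, SE 0.22, adjusted p = 1.14e-19), 44.0-fold on day 3 and 10.7-fold on day 6 (−3.42, SE 0.22, adjusted p = 1.13e-13).

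Against its own day −2, control CIDEC rose by at least 3.73-fold by day 0, 64.8-fold by day 1 and 299-fold by day 2, and was still at least 160-fold up on day 6. In PPARγ KD cells the same gene rose by at least 7.97-fold by day 2, 3.87-fold by day 4 and 14.1-fold by day 6. Under knockdown it came above background between day 1 and day 2, an increase of at least 7.96-fold (adjusted p = 1.69e-14 in limma's fit). The values of days 4, 5 and 6 in PPARγ KD cells (means 8.44, 9.51 and 10.31 on the log2 scale, SD 0.06 to 0.22, n = 3) went up, but neither daily step passed the test (1.07, adjusted p = 0.428, and 0.80, adjusted p = 1).

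PLIN, the perilipin of mature fat cells, stayed below background under knockdown, narrowly so on day 6. In PPARγ KD cells it read below background on all 24 arrays, between 78.3 and 161.3. Control cells were below background on day −2 (107, 89.4 and 89.1) and on day 0 (179.2, 149.9 and 123.7). They came above it on day 1 with 437.3, 390.1 and 275 and reached 1251.8, 1218.5 and 876.8 on day 2. From day 1 on, every control array was above background and every knockdown array below.

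The PLIN differences are therefore bounds. Control was at least 3.15-fold above PPARγ KD on day 1, 11.9-fold on day 2 and 8.29-fold on day 6, with fitted differences of −3.22 (adjusted p = 1.31e-16), −4.63 (adjusted p = 4.19e-22) and −3.11 (adjusted p = 3.84e-16) in limma's fit. On day 6 the knockdown arrays read 160.2, 161.3 and 148.6, above the 78.3 to 137.6 of the other knockdown days. Their detection p-values of 0.01095, 0.01338 and 0.01217 lay just above the cut-off of 0.01, so they still counted as below background. The fitted rise over day −2 was 1.62 (SE 0.17, adjusted p = 2.04e-07 in limma's fit). It was called under all 11 other settings (adjusted p at most 0.00186). Against its own day −2, control PLIN was at least 12.5-fold up on day 2 and 8.80-fold on day 6.

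S3-12 was the one coat gene already lower on day −2, the day on which the hormone treatment began. It was above background on all 48 arrays. On day −2 control cells read 2672, 2075.1 and 1423.1 and PPARγ KD cells 767.6, 850.4 and 558, a 2.97-fold difference without overlap (−1.57, SE 0.08, adjusted p = 5.76e-16). It was the only one of the 6 coat probes changed on that day, when 0.861% of all probes were. The brightest PPARG probe was lower by −2.41 (SE 0.11) on the same arrays. A second PPARG probe, above background on 5 of 24 knockdown arrays over the course, was lower by a fitted −1.86 (SE 0.18). The dimmest PPARG probe gave 0.0004 (SE 0.19). It was above background on only 8 of 24 control and 0 of 24 knockdown arrays over the course, so an absence of knockdown cannot be read from it.

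S3-12 then rose in both groups from day 0 to day 1 and from day 1 to day 2, with the larger gain in the first step in control and in the second in PPARγ KD cells. On day 1 control cells had reached 7517.4, 6763.4 and 3569.2 while PPARγ KD cells stood at 802.1, 822 and 735.4, which is the largest daily difference of this probe, 8.52-fold (−3.09, SE 0.08, adjusted p = 2.79e-26). On day 2 control cells read 11367.3, 11961 and 6860.1 and PPARγ KD cells had caught up in part, with 3699.4, 4216.5 and 2390.4, a 3.22-fold difference. From day 1 to day 2 the knockdown cells gained 2.19 (SE 0.08, adjusted p = 5.96e-21) and the controls 0.79 (adjusted p = 7.88e-07). Compared with day −2, S3-12 was up by 2.47 in control and by 2.35 in PPARγ KD cells on day 2.

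After day 2 S3-12 settled lower in both groups. From day 2 to day 3 it fell by 0.56 in control (adjusted p = 0.00211) and by 1.23 in PPARγ KD cells (adjusted p = 1.77e-12). With 1 replicate left out the control step did not pass (adjusted p = 0.0541 to 1). On day 6 it stood at 7868, 6585.1 and 4605.5 in control and 1814.1, 1814.9 and 1176 in PPARγ KD cells, a 3.86-fold difference. The siRNA effect on day 6 differed from that on day −2 by −0.38 (SE 0.12), which did not pass with Bonferroni (adjusted p = 1) and passed with Benjamini-Hochberg adjustment in limma's fit (adjusted p = 0.0339).

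ADFP was above background on all 48 arrays and overlapped between the groups at the start, with 2830.3, 2119.4 and 1638.8 in control and 2119.6, 2644.7 and 1640.5 in PPARγ KD cells on day −2. In control cells it had 2 high points. It reached 7371.1, 7510.9 and 3995.3 on day 2, at the end of the 48 h rosiglitazone step, dropped to 2850.5, 2088.4 and 1583.2 on day 3 and climbed again to 5776.2, 5215.1 and 3155.6 on day 6. The fall from day 2 to day 3 was 2.80-fold (−1.48, SE 0.07, adjusted p = 3.61e-17) and left the gene at 0.17 above day −2 (SE 0.07, adjusted p = 1).

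The climb of control ADFP after day 3 came in small steps, of which 0.30 from day 3 to day 4 and 0.33 from day 4 to day 5 did not pass (adjusted p = 1 for both). Against day −2, control ADFP was up by 0.47 on day 4 (adjusted p = 0.00495), 0.80 on day 5 (adjusted p = 1.31e-08) and 1.27 on day 6 (adjusted p = 6.69e-15). In PPARγ KD cells it peaked on day 2 at 2954.7, 3995.3 and 2001.6, by 0.45 over day −2 (adjusted p = 0.0134), and on day 6 read 1961.9, 2356.3 and 1198.3, with a difference to day −2 of −0.05 (SE 0.07, adjusted p = 1). Its control value of day 4 and its knockdown value of day 2 did not pass with 1 replicate left out (adjusted p = 0.583 to 1). The rise from day −2 to day 6 differed between the groups by −1.32 (SE 0.10, adjusted p = 1.34e-10).

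The siRNA effect on ADFP followed the 2 high points. It was 1.73-fold on day 1 and 2.32-fold on day 2 (−1.21, adjusted p = 3.3e-14), shrank to 1.37-fold on day 3 (−0.45, adjusted p = 0.0106) and 1.35-fold on day 4 (−0.43, adjusted p = 0.0269), and grew to 2.49-fold on day 6 (−1.32, SE 0.07, adjusted p = 2.01e-15). The calls of days 3 and 4 were lost whichever of the 3 replicates was left out (adjusted p = 0.793 to 1). ADFP was also the coat gene that fell on day 0 under knockdown, by 0.74 against day −2 (adjusted p = 1.06e-07), where control cells showed −0.39 (adjusted p = 0.143) and the groups did not differ by the test (−0.35, adjusted p = 0.749).

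M6PRBP1, a coat protein made in most cell types, ran the other way. It was above background on all 48 arrays. On day −2 it read 2582.3, 1881.9 and 1167.6 in control and 1965.8, 2616.3 and 1403.6 in PPARγ KD cells, which overlap. In control cells it sank to 1121.3, 1042.2 and 645 on day 2 (−0.94 against day −2, SE 0.09, adjusted p = 3.14e-08) and was back at 1819.7, 1391.1 and 871.6 on day 3, a rise of 0.64 (adjusted p = 0.00037, and 0.0638 to 0.949 with 1 replicate left out).

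PPARγ KD cells had their lowest M6PRBP1 on day 1 instead, with 1400.8, 1659.9 and 974.1 (−0.59 against day −2, SE 0.09, adjusted p = 0.00243, and 0.132 to 1 with 1 replicate left out). On day 2 they read 2013, 2779.9 and 1274.5. The groups were then 2.08-fold apart with no overlap after scaling (1.06, SE 0.09, adjusted p = 8.71e-10). Day 2 and day 5 (0.51, SE 0.09, adjusted p = 0.0383) were the only days on which M6PRBP1 was changed, and on each of the other 6 days the difference lay between 0.04 and 0.37. It was higher in PPARγ KD in 21 of 24 pairs of same-numbered arrays. These pairs repeat the same replicate numbers on every day and are not independent. With the replicate number left out of the model, the adjusted p was 0.398 over all days and 0.121 on day 2, and day 5 was also lost whichever replicate was left out (adjusted p = 1).

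CIDEA, the brown fat counterpart of CIDEC, was below background on all 48 arrays, between 75.8 and 138.5, and was lower in PPARγ KD in 12 pairs and higher in 12. No level can be given for it. UCP1, the uncoupling protein that marks brown fat cells, was below background on all 48 arrays too.

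**Figure D2:**
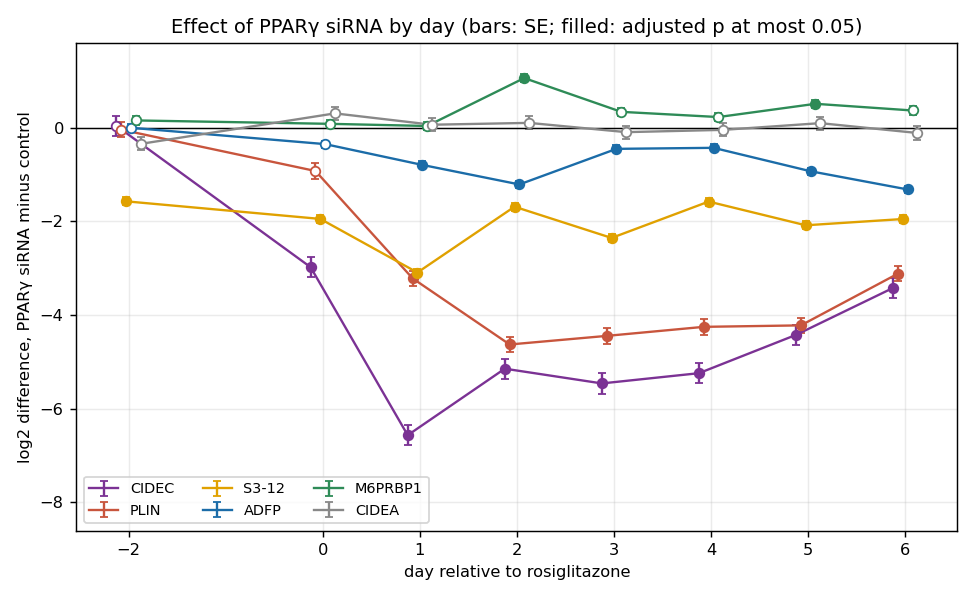
Log2 difference between PPARγ siRNA and control (y axis) for each coat probe on each day (x axis, relative to rosiglitazone). Bars are the SE of limma's fit, and filled points have an adjusted p of at most 0.05. S3-12 alone differs on day −2 with −1.57, CIDEC and PLIN values of days on which the knockdown arrays were below background (CIDEC days −2, 0 and 1, PLIN all days) are fitted values and not measured sizes, ADFP dips on days 2 and 6, and M6PRBP1 rises to 1.06 on day 2.

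Day by day, the number of coat probes changed by PPARγ siRNA was 1 on day −2, 2 on day 0 (against 3.03% of all probes), 4 on day 1 (2.91%), 5 on day 2 (8.92%), 4 on day 3 (2.76%), 4 on day 4 (2.40%), 5 on day 5 (3.24%) and 4 on day 6 (3.88%). CIDEC joined S3-12 on day 0, and PLIN and ADFP followed on day 1. PLIN on day 0 missed the test (adjusted p = 0.0588, passing under 6 of 11 other settings), with both groups below background. CIDEC, PLIN, S3-12 and ADFP were called on every day from day 1 on.

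In the separate fit of days 4 to 6, CIDEC, PLIN, S3-12 and ADFP were lower by −4.36, −3.86, −1.87 and −0.89, with adjusted p-values from 1.62e-15 to 1.06e-08 in limma's fit. These 4 of 6 compare with 5.31% of all probes. M6PRBP1 was higher by 0.37 (SE 0.05) but missed the threshold (adjusted p = 0.0538). It passed under 7 of 12 other settings, with an adjusted p of 4.06e-05 to 1 over all 12.

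The time course of control cells brought up 2 coat probes by day 0 (against 9.06% of all probes changed from day −2), CIDEC and PLIN, the latter still below background and not called without replicate 1 or without replicate 2 (adjusted p = 1 and 0.259). By day 1 it was 4 (8.49%), CIDEC, PLIN, S3-12 and ADFP (the last not without replicate 1 or replicate 2, adjusted p = 0.0789 and 0.717), and on day 2 all 5 detected probes had changed (13.9%), M6PRBP1 downward. The count was 3 on day 3 (4.32%), when ADFP had returned, and 4 on days 4 (4.47%), 5 (5.18%) and 6 (6.24%). In daily steps, the same 4 genes rose from day 0 to day 1 (9.06%) and again from day 1 to day 2 (3.41%), while from day 2 to day 3 ADFP and S3-12 fell and M6PRBP1 rose (8.45%). From day 5 to day 6 ADFP rose by 0.47 (adjusted p = 0.00394), 1 of only 17 probes of the array, or 0.0691%, that changed in that step, with an adjusted p of 0.897 to 1 when 1 replicate was left out.

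Under PPARγ siRNA, 1 coat probe had changed on day 0 (ADFP, downward, against 7.39% of all probes), 1 on day 1 (M6PRBP1, downward by 0.59, against 4.64%) and 3 on day 2 (2.77%), namely CIDEC, S3-12 and ADFP, all upward. CIDEC and S3-12 stayed up on day 3 (1.58%), day 4 (2.41%) and day 5 (3.12%). On day 6 there were 3 (4.40%), the third being PLIN, whose fitted rise lies below background and has no level. In daily steps 2 rose from day 0 to day 1 (S3-12 by 0.57 and ADFP by 0.55, against 8.38%, neither passing with 1 replicate left out), 4 from day 1 to day 2 (CIDEC, S3-12, ADFP and M6PRBP1, against 2.45%, ADFP not passing without replicate 1 or replicate 2 and M6PRBP1 not passing whichever replicate was left out), and S3-12 and ADFP fell from day 2 to day 3 (1.90%). The fall after day 2 was thus measured in both groups for S3-12 and ADFP.

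Whether the siRNA effect itself changed over time was tested directly. Between day −2 and day 6 it grew for 3 of 6 coat probes (2.99% of all probes changed), by −3.46 for CIDEC (SE 0.31), −3.07 for PLIN (SE 0.23) and −1.32 for ADFP. Since CIDEC and PLIN were below background in both groups on day −2, and PLIN also in PPARγ KD on day 6, these sizes are fitted and lay between −3.64 and −3.28 and between −3.29 and −2.10 over the other settings. Between days 0 to 2 and days 4 to 6 it grew for PLIN alone, by −0.94 (SE 0.14, adjusted p = 0.000848, against 3.63% of all probes). The call was lost without replicate 1 (adjusted p = 1) and without replicate 2 (adjusted p = 0.134). It was also lost with offset 1 (−0.79, adjusted p = 0.559) and without the replicate block (adjusted p = 0.0814). The size of this PLIN change rests on values below background, in PPARγ KD on all days and in control on day 0. From each day to the next, a contrast chosen after the values had been seen, the effect changed for 1 probe between days −2 and 0 (0.662% of all probes), 3 between days 0 and 1 (0.492%), 3 between days 1 and 2 (2.08%), 2 between days 2 and 3 (1.51%) and 1 between days 3 and 4 (0.0447%). S3-12 turned within a day: its effect deepened by −1.14 from day 0 to day 1 (SE 0.12, adjusted p = 3.85e-07) and eased by 1.41 from day 1 to day 2 (SE 0.12, adjusted p = 1.2e-09).

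Across the 16 means of siRNA and day, CIDEC correlated with PLIN at r = 0.94 and with S3-12 at r = 0.93, ADFP with these 3 at r = 0.76 to 0.84, and M6PRBP1 with the others at r = −0.41 to −0.56. These describe 16 points that share arrays and a common contrast, and carry no test. The PLIN means of all PPARγ KD days and of control days −2 and 0 lie below background. So do the CIDEC means of PPARγ KD days −2, 0 and 1 and of control day −2. The r values of these 2 genes, also those with other genes below, therefore rest in part on background readings. The genes whose 16 means were most like those of CIDEC were GPD1, glycerol-3-phosphate dehydrogenase (r = 0.97), SORT1, the sorting receptor sortilin (r = 0.96), and ACSL1, which activates long-chain fatty acids (r = 0.96). For PLIN they were BRP44, a subunit of the mitochondrial pyruvate carrier (r = 0.99), FABP4, the fatty acid binding protein of fat cells (r = 0.99), and PEX11A of the peroxisomal membrane (r = 0.98). For S3-12 they were 1110021L09RIK (r = 0.97), EPHX2, the soluble epoxide hydrolase (r = 0.95), and MGST1, a microsomal glutathione transferase (r = 0.94). ADFP was most like 1110008J03RIK (r = 0.94), MTERFD2 (r = 0.93) and DEB1 (r = 0.92), and M6PRBP1 most like IFNZ, FBXO25 and KIF3C (r = 0.94 to 0.95).

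The wider lipid droplet machinery was read with a list of 41 further genes, of which 38 were on the array and 33 above background on at least 3 arrays. Of all 24613 probes, 10567 were above background on at least 3 arrays. The list was also chosen with earlier results of these data known, so the shares of all probes below give a scale and no test. Over days −2 to 6, 21 were lower in PPARγ KD (against 6.74% of all probes), 2 were higher (6.37%) and 15 did not pass, with a median of −0.37 against −0.03 for all probes. The largest falls were those of GPD1, which makes the glycerol backbone of triglyceride (−3.65, SE 0.05), CES3, a carboxylesterase that acts as a triglyceride hydrolase (−3.54, SE 0.06), and ACSL1 (−3.28, SE 0.06). The 2 rises were small, SPG20 with 0.34 (SE 0.03) and the small GTPase RAB7 with 0.28 (SE 0.03). On days 4 to 6, 20 of the 38 were lower (3.77%), none was higher (1.54%), and 18 did not pass, with a median of −0.57 against −0.01. At an unadjusted p under 0.05 in limma's fit, 3 of the 38 were higher on these days.

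Genes on both sides of triglyceride turnover were among those lower. Not all were: ACSL4 (0.21) did not pass, and LPIN1 and ACSL3 were below background on all 48 arrays. Synthesis was represented by DGAT2 (−2.55), DGAT1 (−1.80) and AGPAT2 (−1.75), and breakdown by the lipases PNPLA2 (−2.44) and LIPE (−2.21), by ABHD5 (−0.78), the activator of PNPLA2 that perilipin 1 holds, and by G0S2 (−3.22), the inhibitor of PNPLA2. BSCL2 (seipin), which shapes budding droplets, was lower by −1.03. CIDEB, the liver member of the CIDE family, was lower by −0.35 (SE 0.06) and above background on 9 control arrays and 1 knockdown array. The probe of perilipin 5 was below background on all 48 arrays. Of the caveolar proteins on the list, CAV2 was lower by −0.62 (SE 0.04, adjusted p = 1.55e-13), while CAV1 (−0.08) and PTRF (−0.15) did not pass. Of the Rab GTPases, RAB18 (0.12) did not pass beside RAB7, and RAB5A was below background on all 48 arrays.

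**Figure D3:**
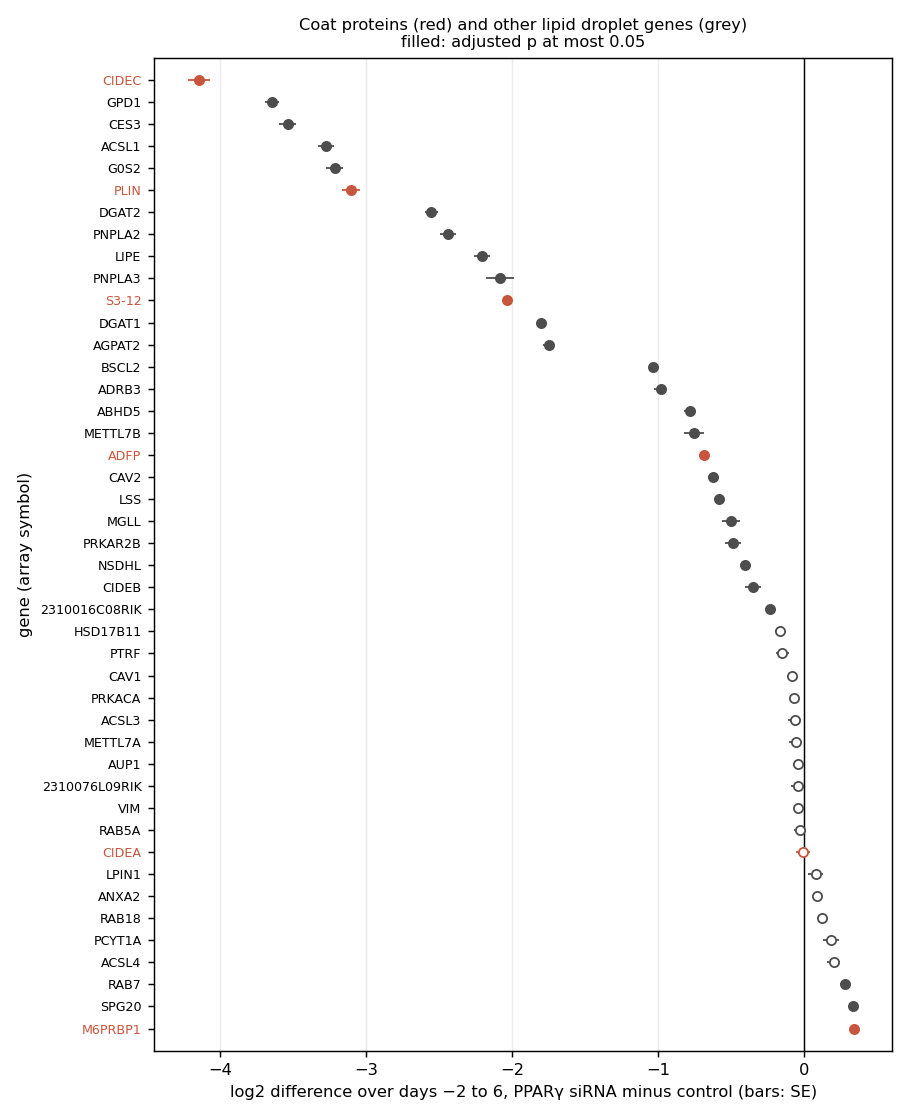
Log2 difference over days −2 to 6 between PPARγ siRNA and control (x axis) for the 6 coat probes (red) and the 38 other lipid droplet genes on the array (grey), ordered by value (y axis). Bars are the SE of limma's fit, and filled points have an adjusted p of at most 0.05. CIDEC lies lowest of the 44, at −4.15, and M6PRBP1 highest, at 0.35.

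Markers of the fat cell moved with the coat genes. Of 9 adipocyte markers, 2 were above background on all 3 control arrays of day −2, 6 on those of day 6 and 4 on the PPARγ KD arrays of day 6. Their summed normalized signal was 10660 to 12350 in control cells on day −2, 117500 to 129600 in control cells on day 6 and 29500 to 31750 in PPARγ KD cells on day 6. A few bright genes carry these sums. In control cells of day −2 LPL had a log2 mean of 13.4 and the next marker, AGT, 7.24. On day 6 ADIPOQ, CFD and LPL were far brighter than the rest in both groups. FABP4, RETN, SLC2A4, LEP and CD36 were below background on all 24 knockdown arrays. The other 4, ADIPOQ, CFD, LPL and AGT, were above background on 15, 12, 24 and 21 knockdown arrays. In PPARγ KD cells of day 6 their log2 means were 12.45, 12.98, 13.97 and 8.26. In control cells of day 6 they were higher, at 15.2, 15.53, 15.14 and 10.04. ADIPOQ and CFD were below background in control cells of day −2. Of the 24 control arrays, FABP4 was above background on 12, RETN on 15, SLC2A4 on 16, LEP on 1 and CD36 on 9. All 9 fibroblast markers were above background in each of these 3 conditions, with summed signals of 119000 to 125400, 108700 to 120400 and 129600 to 139400. No endothelial or epithelial marker was above background in them, CD14 was the 1 macrophage marker of 6 that was, and PPARGC1A the 1 brown fat marker of 4. What the share of fat cells in a dish contributed to the coat gene values was not tested.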

How the data were processed

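Illumina MouseRef-8 v1.1 BeadChips were read for 48 RNA samples, grouped by siRNA, day and replicate from their titles. The deposited table gives per probe the mean intensity of its beads on an array, not normalized by the authors, their SD, how many beads were read, and a detection score, a fraction that equals 1 minus the detection p-value. Their rank-invariant normalization and batch removal are not in these values.

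The normexp correction of limma 3.58.1 (R 4.3.3) was applied using detection p-values (offset 16). Each array was then brought to the mean array by its median ratio over rank-invariant probes, those of the 50th to 90th percentile that shifted in rank by under 0.05 of the probes (scale factors 0.730 to 1.58). Log2 values of all 24613 probes were fitted (lmFit, eBayes) with 1 mean for every combination of siRNA and day, blocked on the replicate number, as the methods remove a batch. The 18 arrays of days 4 to 6 had a fit of their own. Both fits treat the days of a replicate number as independent and have no term for a siRNA effect that differs between replicates. The titles number the replicates, which the paper describes as biological. Same-numbered arrays deviated together from their condition means (correlation 0.544 to 0.914 in 24 pairs). Of 24 control arrays, 16 correlated best with their own number. The other 8, replicate 1 on each of the 8 days, correlated best with number 2. The numbers thus set replicate 3 apart and do not tell replicates 1 and 2 apart. The number of arrays limits the precision.

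A probe below background on all arrays of one side gives a bound, in which the dim side is set to the weakest signal still above background on that array, or to the probe's own value where that is higher, and averaged. Named genes are the members, PPARG, the 3 genes most like each member over the 16 condition means among 10567 probes above background on at least 3 arrays, and from the droplet list the 3 largest falls and the rises called. Other droplet genes were named for their role after their values were seen. The members and all lists were chosen with earlier results of these data known. Fits were tested on simulated data. Promoters came from RefSeq's GRCm38.p6 table, which gave windows for the 5 genes shown. The model, the block, the replicates, the normalization, the offset, the background and multiple testing corrections, the variance estimate and a filter on dim probes were varied. Binding data and the BeadChip of each array were not used here. Figures were drawn with matplotlib 3.10.9.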

Additional observations from a re-analysis of the deposited data

Results flagged for a closer look

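The siRNA effect on these coat genes differed between times by limma's test of the difference itself, Bonferroni adjusted over all probes. From day −2 to day 6 the PPARγ KD minus control difference moved by −3.46 for CIDEC (SE 0.31, adjusted p = 3.49e-09), −3.07 for PLIN (SE 0.23, adjusted p = 4.35e-11) and −1.32 for ADFP (SE 0.10, adjusted p = 1.34e-10). From days 0 to 2 to days 4 to 6 it moved by −0.94 for PLIN (SE 0.14, adjusted p = 0.000848). The CIDEC and PLIN sizes rest in part on values below background. Each of these changes had the same sign in all 3 replicates. With offset 1 the PLIN change of −0.94 became −0.79 and was not called (adjusted p = 0.559).

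Between consecutive harvests, contrasts that were added after the values had been seen, the effect on CIDEC moved by −3.02 from day −2 to day 0 (adjusted p = 1.61e-07) and by −3.59 from day 0 to day 1 (adjusted p = 1.21e-09). For PLIN it moved by −2.29 from day 0 to day 1 (adjusted p = 2.11e-07) and by −1.41 from day 1 to day 2 (adjusted p = 0.0145). CIDEC was below background in knockdown cells on days −2, 0 and 1 and in control cells on day −2, and PLIN in knockdown cells throughout and in control cells on days −2 and 0, so the sizes of these 4 steps are fitted values. Over the other settings the first CIDEC step lay between −3.76 and −1.78, the second between −3.71 and −3.31, and the PLIN steps between −2.58 and −1.44 and between −1.53 and −1.12. The later PLIN step was not called with offset 1 (−1.12). For S3-12 the effect moved by −1.14 from day 0 to day 1 (adjusted p = 3.85e-07), by 1.41 from day 1 to day 2 (adjusted p = 1.2e-09) and by 0.78 from day 3 to day 4 (adjusted p = 0.00349). For ADFP it moved by 0.76 from day 2 to day 3 (adjusted p = 0.000292). For M6PRBP1 it moved by 1.02 from day 1 to day 2 (adjusted p = 2.56e-05) and by −0.72 from day 2 to day 3 (adjusted p = 0.039). All of these had the same sign in 3 of 3 replicates. With 1 replicate left out, the PLIN step from day 1 to day 2, the S3-12 step from day 3 to day 4, the ADFP step and the later M6PRBP1 step passed in no case (adjusted p = 0.0631 to 1), the earlier M6PRBP1 step failed without replicate 2 and without replicate 3 (adjusted p = 0.115 and 0.128), and PLIN from days 0 to 2 to days 4 to 6 failed without replicate 1 and without replicate 2.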

How the results depend on the processing

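Of 121 single values checked, 2 changed sign under an alternative, both of the late minus early siRNA effect and neither past the test: CIDEC was −0.15 without background correction, and M6PRBP1 was 0.00919 with quantile normalization and between −0.060 and 0.011 with 1 replicate left out. A call was lost under at least 1 alternative for 25 of them. The replicate block mattered most: without it 25 calls were lost, among them M6PRBP1 over all days, and the count of coat probes changed over all days went from 5 to 4. Leaving out replicate 1, 2 or 3 lost 21, 22 and 18. The daily siRNA effects called numbered 29 of 48 and stayed between 25 and 33. The knockdown time course gave 23 calls of 78, and 35 with Benjamini-Hochberg adjustment. The late minus early effect gave 1 call (PLIN), against 2 with the filter on dim probes, 3 with Benjamini-Hochberg adjustment, 0 without the replicate block, 2 with an intensity trend and robust variance, and 0 to 1 without 1 replicate. The all-day differences ranged from −4.34 to −3.69 for CIDEC and from −3.67 to −2.10 for PLIN, whose size depends on the offset and background correction because 1 side is below background. The BeadChip as a block was not run, since the data used here do not name the chip of an array.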
